A study of Homo sapiens with 3 samples.

Results

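Aquaporins are small membrane channel proteins, and the transcripts of 10 aquaporin genes (AQP1 to AQP9 and AQP11) were followed across 3 libraries of human teratoma. The genes were chosen by symbol, and all 10 were found among the 27307 genes measured. Each gene stands for its RefSeq transcript with the highest mean level. The libraries, called teratomas 1, 2 and 3 after their replicate numbers, form a single group with no comparison group, and whether they came from separate tumours is not given. The tumours came from H1, a long-established human embryonic stem cell line grown in serum-free E8 medium on Matrigel. The cells were injected subcutaneously into immunodeficient SCID-beige mice and left for 3 to 4 weeks to form teratomas, benign tumours with tissues of all germ layers. Polyadenylated RNA of the whole tumour was sequenced, so fewer cells of a type and less RNA per cell cannot be told apart, and host cells may contribute reads. The spread between libraries may be technical.

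Aquaporins form tetramers in which each subunit is a pore. The classical members AQP1, AQP2, AQP4, AQP5 and AQP8 pass water along osmotic gradients, AQP6 is a related channel of intracellular vesicles, and AQP3, AQP7 and AQP9 also pass glycerol. AQP11 is a divergent member found in the endoplasmic reticulum. Many members have a restricted tissue pattern, and these serve as markers for secretory and absorptive epithelia, red cells, capillaries, glia and fat.

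Transcript levels are in RPKM (reads per kilobase and per 1000000 reads of the library), so genes can be compared per length. Library totals lay between 43605458 and 46243199 reads. Means are given ± SD over the 3 libraries (n = 3), and intervals are 95% exact Poisson intervals, which cover counting error only. Sums over marker lists differed between the libraries. The 6 neuron markers, all at or above 1 RPKM in all 3 libraries and led by TUBB3 and STMN2, summed to 675, 833 and 2239 RPKM in teratomas 1, 2 and 3. The 6 fibroblast and mesenchyme markers, likewise all detected and led by COL1A1 and COL3A1, summed to 1803, 1491 and 394 RPKM. Whether such differences came from tissue makeup, and their part in the values below, was not tested.

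Aquaporin transcripts were few in kind. AQP3 and AQP1 carried most of the signal, AQP11 followed, and the other members averaged about 1 RPKM or less. Of the 10 genes, 3 (AQP1, AQP3 and AQP11) reached 1 RPKM in all 3 libraries, called detected below, against 52.7% of all 27307 genes. AQP8 and AQP5 reached 1 RPKM in teratoma 1 alone, and 5 members stayed under 1 RPKM in every library. The median of the members' mean log2(RPKM + 1) was 0.72, against 1.57 over all genes. The detected count rested on the scale, since it was 6 of 10 when the genes of each library were rescaled to sum to 1000000. That scaling raises all genes alike, and the share of all genes detected under it was not computed.

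**Figure D1:**
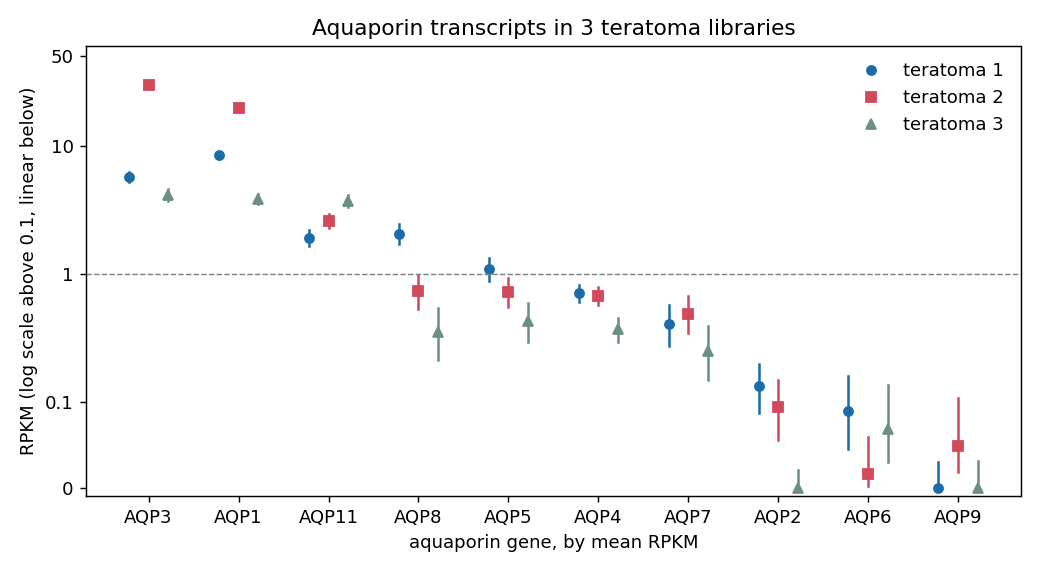
RPKM of the 10 aquaporin genes in each teratoma library, with 95% exact Poisson intervals as vertical lines and a dashed line at 1 RPKM. The axis is logarithmic above 0.1 RPKM and linear below. AQP3 and AQP1 lie above 1 RPKM in all 3 libraries and peak in teratoma 2, at 30.0 and 19.7 RPKM.

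The family total was set by AQP3 and AQP1. The 10 members summed to 20.6, 55.1 and 13.2 RPKM in teratomas 1, 2 and 3. AQP3 made up 27.9%, 54.5% and 31.4% of these sums, and AQP1 41.0%, 35.8% and 29.4%. AQP11 made up 9.34%, 4.7% and 28.1%. The member with the highest level thus differed, AQP1 in teratoma 1 and AQP3 in teratomas 2 and 3.

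**Figure D2:**
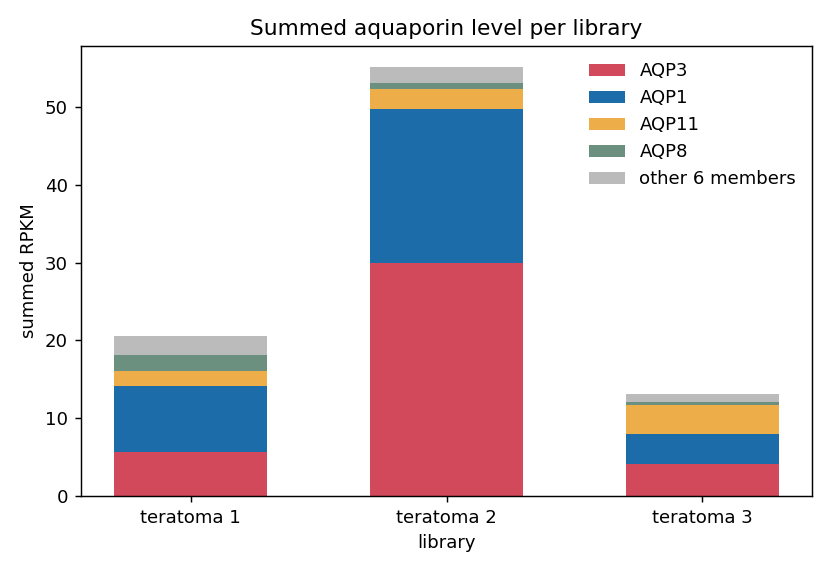
Summed RPKM of the 10 aquaporin genes in each teratoma library, stacked by gene, with the 6 lowest members joined. The bar of teratoma 2 reaches 55.1 RPKM, against 20.6 in teratoma 1 and 13.2 in teratoma 3, and AQP3 and AQP1 fill 90.3% of it.

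A member was called varying when log2(RPKM + 1) spanned 1 or more between its extreme libraries and their counting intervals did not overlap. AQP1, AQP3 and AQP8 were called, 3 of 10 members, against 11.7% of all genes. Among the genes averaging 1 RPKM or more, 19.6% varied. AQP1 and AQP3 were highest in teratoma 2 (2 of 10 members, against 2.78% of all genes for varying with that library highest), and AQP8 was highest in teratoma 1. The call of AQP1 and AQP3 rested on teratoma 2, because AQP8 alone varied without it. The call of AQP8 was lost without teratoma 1 and without teratoma 3. Counting intervals of the highest and lowest library lay apart for 7 of 10 members, against 56.4% of all genes. For 6 of the 10 they lay apart with teratoma 3 lowest, against 28.9% of all genes. The highest and the lowest library of each member were the same under each of the other scalings tried (rescaling to 1000000, median-of-ratios and TMM factors).

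AQP1 and AQP3 were both highest in teratoma 2, at 2.34 and 5.23 times their level in teratoma 1, and AQP8 was highest in teratoma 1. The upstream sequences of these 3 varying members are shown, and a link between sequence and level was not tested. They come from RefSeq (build GRCh38.p14, while the reads were placed on hg19) and run from 250 bases before to 50 bases after the annotated start, 5′ to 3′ on the gene's strand. Capitals mark matches on either strand to 3 motifs, the TATA box TATAAA, the CCAAT box CCAAT and the GC box GGGCGG, and GC box matches may overlap each other. AQP1 lies at chr7:30911603-30911902 on the plus strand, AQP3 at chr9:33447544-33447843 on the minus strand and AQP8 at chr16:25216697-25216996 on the plus strand.
AQP1: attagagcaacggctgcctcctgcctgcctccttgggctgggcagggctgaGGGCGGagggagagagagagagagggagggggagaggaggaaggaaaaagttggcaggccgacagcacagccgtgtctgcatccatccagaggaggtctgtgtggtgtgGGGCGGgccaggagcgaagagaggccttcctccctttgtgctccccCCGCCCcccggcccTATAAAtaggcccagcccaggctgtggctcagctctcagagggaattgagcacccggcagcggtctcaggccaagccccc
AQP3: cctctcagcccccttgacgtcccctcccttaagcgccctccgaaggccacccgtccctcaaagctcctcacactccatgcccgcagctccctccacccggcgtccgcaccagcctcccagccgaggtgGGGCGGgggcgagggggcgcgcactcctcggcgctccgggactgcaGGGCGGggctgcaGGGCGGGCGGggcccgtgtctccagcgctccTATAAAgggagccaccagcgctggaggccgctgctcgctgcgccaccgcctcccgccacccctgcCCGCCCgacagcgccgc
AQP8: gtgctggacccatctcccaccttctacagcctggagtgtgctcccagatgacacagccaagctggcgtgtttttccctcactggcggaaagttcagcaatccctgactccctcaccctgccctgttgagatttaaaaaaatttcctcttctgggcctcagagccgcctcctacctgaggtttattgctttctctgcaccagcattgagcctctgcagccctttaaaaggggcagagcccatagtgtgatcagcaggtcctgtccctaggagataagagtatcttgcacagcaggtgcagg

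The AQP1 and AQP3 sequences each held 1 TATAAA match, with its first base at -30 in AQP1 and at -32 in AQP3, counted from the annotated start. GGGCGG matched at 3 places in AQP1 and at 5 in AQP3. The AQP8 sequence held none of the 3 motifs. Of all 35116 upstream sequences of this length, 11.5% held TATAAA, 34.6% CCAAT and 45.0% GGGCGG. GC content was 65.3% in AQP1, 75.3% in AQP3 and 53.7% in AQP8, beside a median of 58.7% over all of them. Sequences were matched for 8 of the 10 members, with 11 starts in all. TATAAA was also found upstream of AQP2 and of 1 of the 3 AQP4 starts. GGGCGG was also found upstream of AQP5 (4 matches, GC content 84.0%), whose library order matched that of AQP8, and of AQP7 (1 match). These matches are letters in a window and not mapped sites.

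AQP1, the water channel of red cells, capillary endothelium, choroid plexus and proximal kidney tubule, stood at 8.42, 19.7 and 3.87 RPKM in teratomas 1, 2 and 3 (10.7 ± 8.16), on 1050, 2435 and 455 reads. The intervals were 7.92 to 8.95, 18.9 to 20.5 and 3.52 to 4.24 RPKM, so all 3 libraries differed beyond counting error. The level in teratoma 2 placed AQP1 above 88.7% of genes there, against 73.6% in teratoma 1 and 60.6% in teratoma 3. Without teratoma 2 the mean was 6.15 RPKM. Its range of 2.09 on the log2 scale exceeded that of 97.9% of the 15701 genes averaging 1 RPKM or more. Its other RefSeq entry, which is longer, gave nearly the same values (8.07, 18.9 and 3.71 RPKM), as both entries share most reads.

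Markers of 3 of the tissues known for AQP1 were measured beside it, and none was listed for the proximal tubule. Of 6 choroid plexus markers 3 were detected, led by TTR, the thyroid hormone carrier that liver also makes (73.0, 175 and 23.5 RPKM), and the chloride channel gene CLIC6 (8.38, 8.59 and 1.69 RPKM). The list summed to 89.5, 190 and 29.1 RPKM, but KL and KCNJ13, further genes of this epithelium, stayed at 0.15 to 0.487 RPKM. Of 7 endothelium markers 3 were detected, led by EGFL7 (20.9, 20.9 and 7.49 RPKM) and the tight junction gene CLDN5 (12.1, 10.3 and 2.79 RPKM), and the list summed to 43.9, 45.9 and 13.3 RPKM. Of the 7, 5 were highest in teratoma 2, among them KDR (2.82, 4.58 and 1.13 RPKM), though neither EGFL7 nor CLDN5 was. Of 9 erythroid markers 5 were detected. HBA1 (11.6, 21.6 and 5.37 RPKM) and HBA2 (10.3, 20.1 and 5.65 RPKM) led them, alpha globin copies between which the split of reads is uncertain. The erythroid list summed to 35.2, 74.8 and 18.3 RPKM. All 3 lists were lowest in teratoma 3, as AQP1 was, and their part in the AQP1 values was not tested. Most other marker lists also had their lowest sum in teratoma 3, with epidermis, astroglia and neuron the exceptions. Among single markers, 3 of 6 for choroid plexus and 8 of 9 for the erythroid list were highest in teratoma 2.

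The likeness of library profiles was measured as the Euclidean distance between deviations of log2(RPKM + 1) from the 3-library mean, over 3 libraries. Among 62 marker genes averaging 1 RPKM or more, those nearest to AQP1 were the globins HBA1 (distance 0.225), HBE1 (0.247) and HBZ (0.251). HBE1, the embryonic beta-type globin, stood at 8.14, 16.7 and 4.3 RPKM. Of 15700 other genes 23 lay no farther from AQP1 than HBZ. With only 3 libraries such likeness is a description.

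**Figure D3:**
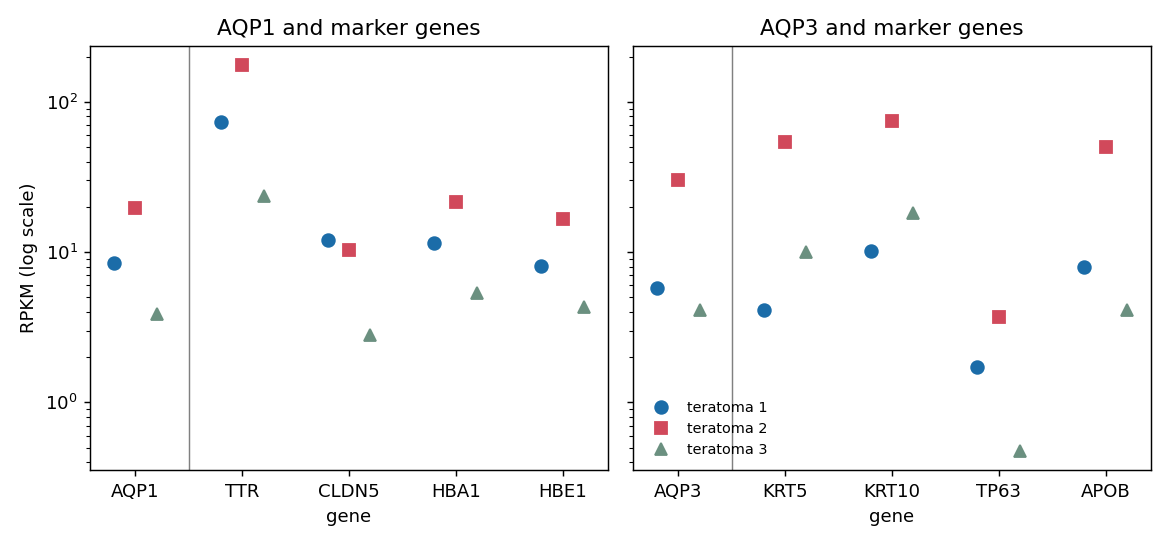
RPKM on a log axis in the 3 teratoma libraries for AQP1 with TTR, CLDN5, HBA1 and HBE1 (left) and for AQP3 with KRT5, KRT10, TP63 and APOB (right). Each point is a library. AQP1, TTR and the globins are highest in teratoma 2 and lowest in teratoma 3, and CLDN5 is highest in teratoma 1. AQP3, APOB and TP63 are likewise lowest in teratoma 3. KRT5 and KRT10 peak in teratoma 2 and are lowest in teratoma 1.

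AQP8, a water channel of pancreatic acinar cells, hepatocytes and colon, stood at 2.05, 0.734 and 0.351 RPKM in teratomas 1, 2 and 3 (1.04 ± 0.891) on 124, 44 and 20 reads. Teratoma 1 stood apart, as its interval of 1.71 to 2.44 RPKM lay above those of teratoma 2 (0.533 to 0.986) and teratoma 3 (0.214 to 0.542), which met. Even so, the ratio of teratoma 2 to teratoma 3 was 2.09 (1.23 to 3.55, counting error only). The ratio of the highest to the lowest library was 5.85, and the mean was 0.542 RPKM without teratoma 1. Pancreatic acinar markers were detected in 6 of 7 cases. Those 6 ran in the same order as AQP8, and the list summed to 864, 213 and 51.7 RPKM. Among them was the lipase CEL (275, 78.9 and 15.9 RPKM), while PNLIP, the pancreatic lipase of the mature gland, was at 0.0146 to 0.0869 RPKM. Intestine markers, 3 of 6 detected and led by CDX2 (25.8, 31.3 and 8.98 RPKM) and VIL1 (28.3, 24.0 and 6.72 RPKM), summed to 72.3, 75.8 and 20.1 RPKM. Liver and yolk sac markers ran in another order, with all 8 highest in teratoma 2 and sums of 1031, 3735 and 338 RPKM. The order of AQP8 was also that of the fibroblast and mesenchyme sums (1803, 1491 and 394 RPKM). Airway and gland sums (40.5, 20.5 and 3.69 RPKM) and adipocyte sums (8.3, 7.29 and 6.99 RPKM) had it too. Whether any of these tissues carried the AQP8 reads was not tested.

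AQP5, the apical water channel of salivary, lacrimal and airway glands and of flat alveolar cells, stood at 1.09, 0.718 and 0.427 RPKM on 92, 60 and 34 reads. Its order matched that of AQP8, and the interval in teratoma 1 (0.879 to 1.34 RPKM) lay above that in teratoma 3 (0.296 to 0.597) but met that in teratoma 2 (0.548 to 0.924). The difference of 0.55 on the log2 scale was short of the call. The ratio of teratoma 2 to teratoma 1 was 0.658 (0.475 to 0.911, counting error only), although their intervals met. Airway and gland markers were detected in 2 of 7 cases and summed to 40.5, 20.5 and 3.69 RPKM. The leaders were the club cell secretoglobin SCGB1A1 (35.1, 17.7 and 1.83 RPKM) and AGER (2.5, 1.84 and 1.71 RPKM), and LTF, MUC5B, SFTPC and BPIFA1 stayed at or under 0.291 RPKM.

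AQP4, the water channel of astrocyte endfeet, was low at 0.704, 0.673 and 0.369 RPKM in teratomas 1, 2 and 3 (0.582 ± 0.185), on 170, 161 and 84 reads. Teratoma 3 was the lowest (interval 0.294 to 0.457 RPKM), and teratomas 1 and 2 did not differ beyond counting error (0.602 to 0.819 and 0.573 to 0.786 RPKM). Astroglia markers did not share 1 order. Of 7, 4 were detected, led by GJA1 (47.8, 75.1 and 26.1 RPKM) and the glutamate transporter SLC1A3 (12.1, 25.3 and 33.3 RPKM), and the list summed to 73.7, 115 and 83.2 RPKM. GFAP, the astrocyte filament, stood at 0.392, 2.53 and 4.1 RPKM, and KCNJ10, the potassium channel that shares the endfoot with AQP4, at 0.232, 0.601 and 1.46 RPKM, both highest where AQP4 was lowest. S100B, a calcium-binding protein gene of astroglia, ran in the order of AQP4 (10.1, 4.71 and 3.84 RPKM), and 3 of the 7 markers (GJA1, S100B and ALDH1L1) were lowest in teratoma 3. The 5 genes of the dystrophin complex and matrix that anchor AQP4 were all detected and none varied, led by AGRN (122, 114 and 97.1 RPKM) and DAG1 (47.5, 50.1 and 40.1 RPKM). The 4 AQP4 entries gave means between 0.568 and 0.582 RPKM from largely the same reads. AQP4-AS1, the antisense gene, had 1, 2 and 2 reads.

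AQP2, the vasopressin-controlled channel of the collecting duct, had 26, 18 and 0 reads in teratomas 1, 2 and 3, or 0.135, 0.094 and 0 RPKM. The interval of the 0 count in teratoma 3 reached 0.0202 RPKM, below those of teratoma 1 (0.0879 to 0.197 RPKM) and teratoma 2 (0.0557 to 0.149 RPKM). AQP6, a vesicle channel of the acid-secreting cells of that duct, had 11, 2 and 8 reads (0.0896, 0.0164 and 0.0691 RPKM), and its intervals overlapped. Of 8 collecting duct markers 2 were detected, led by the steroid dehydrogenase HSD11B2 (6.26, 5.75 and 3.27 RPKM) and the sodium channel subunit SCNN1A (3.8, 6.11 and 1.54 RPKM), which other epithelia also make, and the list summed to 14.1, 14.5 and 5.51 RPKM. FXYD4, an ion pump regulator of the duct, was at 0 in teratomas 2 and 3 and at 0.0561 RPKM in teratoma 1. Of the 6 genes of the vasopressin route to AQP2, 5 were detected, led by the broadly used G protein gene GNAS (747, 627 and 773 RPKM) and the vesicle protein gene VAMP2 (40.5, 49.0 and 110 RPKM). The sixth was the receptor AVPR2, at 0.0999, 0.0378 and 0.0927 RPKM.

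Among the glycerol channels, AQP3 was the one detected. AQP3, which moves water and glycerol in basal epidermis and in the collecting duct, stood at 5.73, 30.0 and 4.14 RPKM in teratomas 1, 2 and 3 (13.3 ± 14.5) on 496, 2571 and 338 reads. Teratoma 2 stood far above the others, with an interval of 28.8 to 31.2 RPKM against 5.24 to 6.26 and 3.71 to 4.61 RPKM. The ratio of teratoma 2 to teratoma 1 was 5.23 (4.75 to 5.76, counting error only) and that of teratoma 2 to teratoma 3 was 7.24 (6.46 to 8.11). For AQP1 the same ratios were 2.34 (2.18 to 2.52) and 5.09 (4.61 to 5.63). Without teratoma 2 the mean of AQP3 was 4.94 RPKM. The log2 range of AQP3, 2.59, exceeded that of 99.4% of the same 15701 genes. AQP3 lay above 66.3%, 93.2% and 61.9% of genes in teratomas 1, 2 and 3. Its shorter entry gave 5.32, 27.8 and 4.12 RPKM.

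Epidermis markers were detected in 2 of 7 cases and 6 of the 7 were highest in teratoma 2, with sums of 16.5, 219 and 44.5 RPKM. KRT10, a keratin of differentiating epidermis, stood at 10.2, 74.7 and 18.3 RPKM, and KRT1, its partner, at 0.0794, 83.0 and 14.3 RPKM. KRT5, the basal keratin, stood at 4.14, 54.1 and 9.95 RPKM, and TP63, the factor of basal epithelium, at 1.73, 3.71 and 0.475 RPKM. FLG, a protein of cornified layers, had a level of 0 in teratomas 1 and 3 and 0.024 RPKM in teratoma 2, while LOR, another protein of those layers, was highest in teratoma 3 (0.0176, 0.284 and 0.989 RPKM). The order of teratomas 1 and 3 differed, with KRT1, KRT5 and KRT10 lower in teratoma 1 and AQP3 and TP63 lower in teratoma 3. Other lists peaked in teratoma 2 as well, and the marker genes nearest to AQP3 in profile were not keratins but HBZ (distance 0.504), the apolipoprotein APOB (0.515; 7.97, 50.3 and 4.14 RPKM) and the fibrinogen chain FGB (0.568). Of 15700 other genes, 33 lay no farther than FGB. The tissue that carried AQP3 was not tested.

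AQP7, the glycerol channel of adipocytes, stood at 0.406, 0.489 and 0.25 RPKM in teratomas 1, 2 and 3 (0.381 ± 0.121) on 31, 37 and 18 reads, and the intervals of the libraries overlapped. The entry with the highest mean was a non-coding one, and all 7 entries lay between 0.311 and 0.381 RPKM. Adipocyte markers were scarce, with 2 of 6 detected and sums of 8.3, 7.29 and 6.99 RPKM. They were led by the lipases LIPE (4.95, 3.33 and 3.96 RPKM) and LPL (2.71, 2.77 and 2.75 RPKM), and ADIPOQ, a hormone made by fat cells, was at 0 in teratomas 2 and 3 and at 0.0189 RPKM in teratoma 1. Of 6 genes of glycerol metabolism 4 were detected, led by AGPAT2 (34.6, 39.6 and 10.4 RPKM) and the lipase PNPLA2 (23.2, 16.6 and 10.4 RPKM), while the glycerol kinase GK stayed at 0.596 to 0.723 RPKM.

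AQP9, the channel through which hepatocytes take up glycerol, was at or near the counting floor. It had 0, 6 and 0 reads, and the intervals of the 0 counts reached 0.0299 RPKM in teratoma 1 and 0.0317 RPKM in teratoma 3. The 6 reads fell in teratoma 2, at 0.0491 RPKM, with an interval of 0.018 to 0.107 RPKM that overlapped both of those. All 8 liver and yolk sac markers were highest in teratoma 2, but a link to AQP9 was not tested. Those markers were detected in 8 of 8 cases and summed to 1031, 3735 and 338 RPKM, with AFP, the fetal counterpart of albumin (452, 1889 and 159 RPKM), and the apolipoprotein gene APOA1 (371, 1205 and 109 RPKM) in the lead.

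AQP11, the divergent member of the endoplasmic reticulum, was highest in the library where AQP1 and AQP3 were lowest. It stood at 1.92, 2.59 and 3.71 RPKM in teratomas 1, 2 and 3 (2.74 ± 0.904), on 191, 255 and 348 reads. The interval in teratoma 3 (3.33 to 4.12 RPKM) lay above those in teratoma 1 (1.66 to 2.21) and teratoma 2 (2.28 to 2.92), and AQP11 was the single member of the 10 that was highest there. Like AQP1 and AQP3 it was higher in teratoma 2 than in teratoma 1, by 1.35 times (1.12 to 1.63, counting error only). The difference of 0.69 on the log2 scale was short of the call. Its nearest marker genes were LPL (distance 0.479), SLC1A3 (0.58) and TUBB3 (0.676; 434, 510 and 1216 RPKM), but 9158 of 15700 genes lay no farther than TUBB3.

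**Figure D4:**
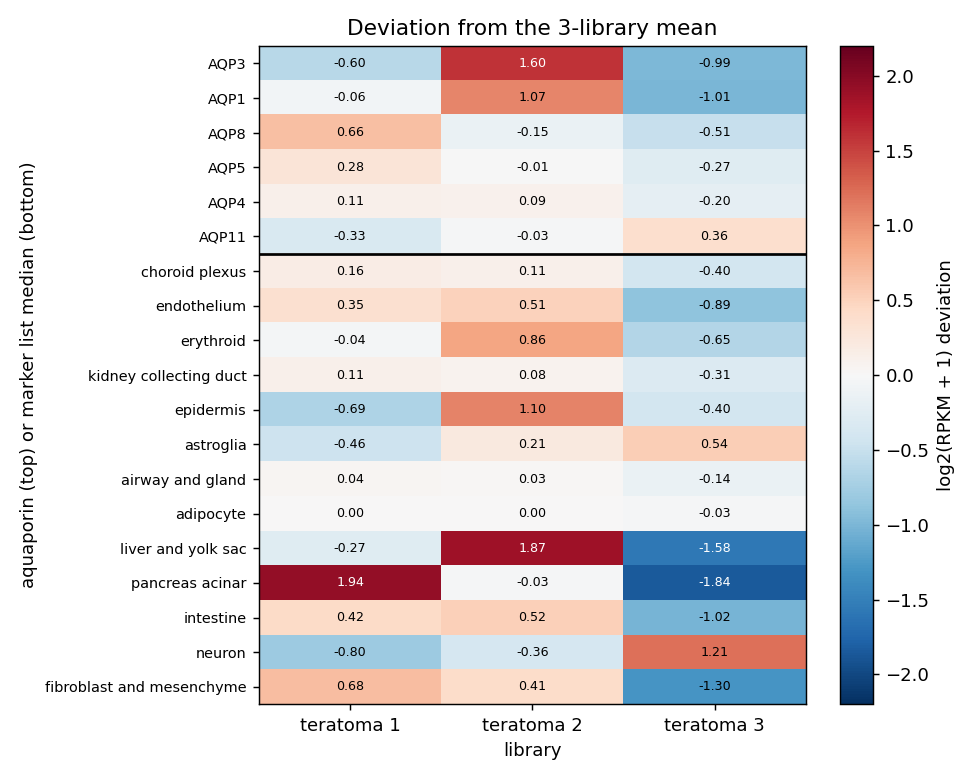
Deviation of log2(RPKM + 1) from the 3-library mean, by library. The top rows are 6 aquaporins, and the bottom rows are medians over each marker list, taken in each library separately. AQP3 and AQP1 are above their mean in teratoma 2 (1.60 and 1.07). AQP8 (0.66) is above its mean in teratoma 1, as are, among others, the pancreas acinar (1.94) and fibroblast and mesenchyme (0.68) lists. AQP11 (0.36) is above its mean in teratoma 3, as are the neuron (1.21) and astroglia (0.54) lists.

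Ordered by mean RPKM, the members ran AQP3, AQP1, AQP11, AQP8, AQP5, AQP4, AQP7, AQP2, AQP6 and AQP9. Of the 9 neighbouring pairs, 4 kept that order in all 3 libraries, namely AQP1 over AQP11, AQP5 over AQP4, AQP4 over AQP7 and AQP7 over AQP2. The ranges of neighbours overlapped in 7 pairs, and AQP1 over AQP11 and AQP7 over AQP2 were the 2 without overlap. AQP1 exceeded AQP11 by 1.42 ± 1.26 and AQP7 exceeded AQP2 by 0.36 ± 0.08 on the log2(RPKM + 1) scale (exact two-sided sign-flip p = 0.25 each, the smallest that 3 libraries allow, adjusted p = 0.562 over 9 pairs). AQP3 and AQP1 could not be ordered, with AQP3 higher in 2 of 3 libraries and a difference of 0.06 ± 0.53 (exact p = 0.75, adjusted p = 0.75).

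Some aquaporin genes lie side by side in the genome. In the RefSeq gene order (GRCh38.p14), AQP7 and AQP3 are adjacent on chromosome 9, at 0.381 ± 0.121 and 13.3 ± 14.5 RPKM, with AQP3 higher in all 3 libraries. AQP2, AQP5 and AQP6 follow each other on chromosome 12, at 0.0762 ± 0.069, 0.745 ± 0.332 and 0.0584 ± 0.0378 RPKM, with AQP5 above both neighbours in all 3 libraries.

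Ion transporters that set up the gradients for water flow were broadly present. Of 10 such genes 9 were detected, among them the sodium pump subunit ATP1B1 (44.1, 52.8 and 55.3 RPKM), and 3 varied. The varying genes were CFTR, the chloride channel of secretory epithelia (9.64, 9.0 and 2.9 RPKM), the carbonic anhydrase CA2 (5.54, 9.44 and 3.1 RPKM) and the bicarbonate transporter SLC4A4 (7.89, 3.18 and 2.47 RPKM), each lowest in teratoma 3. TRPV4, a channel sensitive to cell swelling, was the one not detected, at 1.94, 1.63 and 0.534 RPKM.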

How the data were processed

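Polyadenylated RNA of 3 teratoma libraries was measured. The submitters' processing notes name Bowtie2 and the build hg19. For the counting tool, the strand setting and any removal of mouse reads, the answer is not given in the sources used here. Without a known strand setting, reads of a gene and its antisense partner cannot be told apart. The deposited tables list for each of 59443 RefSeq transcripts the authors' RPKM and the authors' raw read count. The RPKM values equal the counts divided by length and by 1 total per library (43605458 to 46243199 reads). Of entries sharing a symbol, the one with the highest mean RPKM was kept, which left 27307 genes. At the median length of 2500 bases, 3 reads are 0.026 to 0.0275 RPKM.

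Comparisons used log2(RPKM + 1), a scale that shrinks differences between low values. No model was fitted, as there is 1 group. A gene was detected when every library had 1 RPKM or more, and varying meant a difference of at least 1 on that scale with 95% exact Poisson intervals apart. This call was tested on simulated data. The simulation held counting error alone and changed only genes with many reads. It therefore did not cover spread between libraries or changes in genes with few reads. The members and lists were chosen with earlier results of these data known. Named were all 10 members, the 2 genes with the highest mean of each of 18 lists, the 3 marker genes nearest in profile to each detected member, and the further aquaporin symbols; any other list gene in the text was chosen after its values were seen. Some genes that this rule names are not reported here. Alternatives covered the entry of a gene, 3 other scalings, the thresholds, the pseudocount and each library left out. Python 3.11.15, numpy 2.4.6, pandas 2.3.3, scipy 1.17.1 and matplotlib 3.10.9 were used, and edgeR 4.0.16 in R 4.3.3 for TMM factors.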

Additional observations from a re-analysis of the deposited data

How the results depend on the processing

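The count of detected members (3 of 10) was 7 with detection at 0.1 RPKM, 0 at 5 RPKM, 5 when a gene's entries were summed and 6 when each library was rescaled to 1000000, which multiplies RPKM by 3.36, 3.48 and 3.62 in teratomas 1, 2 and 3. The share of all genes detected under these alternatives was not computed. The count of varying members (3 of 10) was 5 with a difference of 0.5, 5 with a pseudocount of 0.1, and 1 to 2 with 1 library left out. The median member level (0.72 on the log2 scale) was 1.32 with entries summed and 1.68 after rescaling, and the pairs in 1 order in all libraries (4 of 9) were 2 with entries summed, an alternative chosen for this result after the data were seen. Summing counts shared reads repeatedly. Of 50 member levels recomputed with all libraries kept, 36 moved by no more than 1 SD, and the other 14 came from rescaling or summing. Leaving out 1 library moved the means of 5 members by over 1.5 times. AQP3 averaged 4.94 and AQP1 6.15 RPKM without teratoma 2, AQP8 0.542 RPKM without teratoma 1, and AQP2 0.047 without teratoma 1 and 0.114 RPKM without teratoma 3. AQP9, with reads in teratoma 2 alone, averaged 0 RPKM without it and 0.0246 RPKM without either other library. No paired analysis was possible because all libraries form 1 group. Depth limits AQP2, AQP6 and AQP9, which had 0 to 26 reads per library.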

Other observations

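Of 10 further aquaporin symbols looked for, 7 were measured, none was detected, and 6 were under 1 RPKM in all 3 libraries. AQP10, a glycerol channel of the small intestine, stood at 0.99, 2.97 and 0.243 RPKM in teratomas 1, 2 and 3 and was the 1 that varied (log2 range 1.68), highest in teratoma 2 like AQP1 and AQP3. AQP12A and AQP12B, near-identical copies known from pancreatic acinar cells, between which the split of reads is uncertain, stood at 0.938, 0.383 and 0.127 RPKM and at 0.932, 0.098 and 0.165 RPKM, highest in teratoma 1 like AQP8 and the acinar markers. MIP, the lens fibre aquaporin, had 4, 10 and 10 reads. The AQP7 pseudogenes AQP7P1 and AQP7P3, whose reads may be shared with AQP7, stood at 0.16 ± 0.0746 and 0.628 ± 0.223 RPKM (SD, n = 3), beside 0.381 ± 0.121 RPKM for AQP7. AQP7P3 was above AQP7 in teratomas 1 and 3 and below it in teratoma 2 (0.777, 0.371 and 0.737 RPKM on 19, 9 and 17 reads).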
